A study of Homo sapiens with 8 samples.

Results

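G4 ChIP-seq peaks at noncoding-only promoters, named so from annotation alone, were examined in K562, a chronic myelogenous leukaemia line, and HepG2, a hepatocellular carcinoma line. A peak was taken when it shared at least 1 bp with the 1 kb upstream of a transcription start site (TSS) of a gene whose annotated type was not protein coding, and when its centre lay more than 1 kb from every TSS of a protein-coding gene, in GENCODE release 44 on hg19. This gave 445 of 9205 K562 peaks, or 4.83% (95% Wilson interval 4.41% to 5.29%), and 386 of 8805 HepG2 peaks, or 4.38% (3.98% to 4.83%), 831 of 18010 intervals in all. The limit on coding TSSs removed most candidates, since 1506 of 1951 K562 peaks and 1237 of 1623 HepG2 peaks upstream of a noncoding TSS had a coding TSS near their centre. At the limit itself, the peak of TPBGL-AS1 lay 1016 bp from a coding TSS in K562 and was kept, and that of NRSN2-AS1 lay 999 bp away and was left out. The NRSN2-AS1 peak of HepG2 lay 1051 bp away and was kept. The limit applied to the centre, and 2 K562 and 2 HepG2 members still touched the 1 kb upstream of a coding TSS.

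Each line was profiled unsynchronised and with no treatment given in the labels, by 3 immunoprecipitations with a G4-specific antibody and 1 input, and the labels call these immunoprecipitations technical replicates. The merged datasets came from 3 independent experiments per line, each run with technical replicates. The authors also took earlier G4 ChIP-seq data of K562 into account, and whether these enter the K562 lists is not stated. The deposited lists merge the replicates of a line, so no spread between replicates could be had and every interval below covers counting over peaks only. The high-confidence lists hold intervals called in at least 5 of 8 K562 datasets and 6 of 9 HepG2 datasets, and the lower-confidence lists, with 19249 and 28387 intervals, those called in at least 2. Because the lists differ in replicate number and threshold, a difference between the lines and a difference in how the lists were made cannot be told apart. The lists carry no read counts, so depth is unknown.

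G-quadruplexes (G4s) are stacked guanine tetrads that guanine-rich single strands can fold into, and in chromatin they are found mostly in the nucleosome-free DNA of active promoters. Noncoding genes include long noncoding RNAs (lncRNAs), pseudogenes derived from coding genes, and small RNAs. Some lncRNAs host microRNAs or small nucleolar RNAs in their introns. Most lncRNA genes are transcribed from promoters of the same general build as coding genes, while many small RNAs are made by RNA polymerase III.

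The sequences of the members that the results turn on are given first, read 5′ to 3′ from the GRCh37 (hg19) reference. The FAM86 loci are shown because copies of the same promoter carried a peak in both lines, and the capitals mark a stretch of 26 bases that holds a complete G4 motif in 8 of these 9 loci. A motif was called complete where 4 runs, each of 3 G or more, followed one another on the same strand with between 1 and 7 bases in every gap.
FAM86FP, chr12:8396114-8396179, plus strand: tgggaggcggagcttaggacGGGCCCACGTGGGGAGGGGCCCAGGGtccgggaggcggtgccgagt
FAM86GP, chr11:3444300-3444365, plus strand: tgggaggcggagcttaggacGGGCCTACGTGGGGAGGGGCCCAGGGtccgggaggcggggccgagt
FAM86C2P, chr11:67573358-67573423, plus strand: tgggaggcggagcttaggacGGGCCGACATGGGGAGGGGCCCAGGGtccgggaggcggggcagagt
LINC02018 (beside FAM86DP), chr3:75484797-75484862, plus strand: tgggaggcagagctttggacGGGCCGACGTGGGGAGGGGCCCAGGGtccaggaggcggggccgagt
ENSG00000248787 (beside FAM86JP), chr3:125634828-125634893, minus strand: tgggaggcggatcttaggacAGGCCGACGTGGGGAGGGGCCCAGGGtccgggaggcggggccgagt
LINC02021 (beside FAM86HP), chr3:129830888-129830953, plus strand: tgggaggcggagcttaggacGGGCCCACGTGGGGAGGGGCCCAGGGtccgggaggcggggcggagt
FAM86EP, chr4:3957679-3957744, plus strand: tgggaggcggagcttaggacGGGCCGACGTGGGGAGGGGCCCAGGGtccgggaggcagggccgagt
FAM86KP, chr4:9154383-9154448, minus strand: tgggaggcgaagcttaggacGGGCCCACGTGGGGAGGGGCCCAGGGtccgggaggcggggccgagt
ENSG00000287117 (beside FAM86MP), chr4:9693479-9693544, minus strand: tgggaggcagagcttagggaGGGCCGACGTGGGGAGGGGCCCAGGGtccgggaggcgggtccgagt

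The well-known lncRNAs and host genes are shown for the spread of motif layouts in the set, with complete motifs in capitals.
NEAT1, K562, chr11:65189668-65189748, minus strand: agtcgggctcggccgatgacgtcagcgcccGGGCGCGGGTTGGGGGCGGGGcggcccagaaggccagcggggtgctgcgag
CRNDE, K562, chr16:54963067-54963147, minus strand: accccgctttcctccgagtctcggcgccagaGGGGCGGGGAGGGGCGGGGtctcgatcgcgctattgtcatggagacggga
LINC00511, HepG2, chr17:70588982-70589050, plus strand: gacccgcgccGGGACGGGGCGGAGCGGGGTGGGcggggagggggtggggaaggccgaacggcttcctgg
MIR17HG, K562, chr13:92001037-92001196, plus strand: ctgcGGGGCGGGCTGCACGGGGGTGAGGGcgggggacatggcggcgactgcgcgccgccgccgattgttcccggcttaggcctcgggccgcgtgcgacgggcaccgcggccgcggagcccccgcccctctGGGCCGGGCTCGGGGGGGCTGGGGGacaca
MIRLET7A1HG, K562, chr9:96928925-96929005, plus strand: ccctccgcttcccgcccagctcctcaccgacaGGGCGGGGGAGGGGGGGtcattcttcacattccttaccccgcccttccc
RN7SL2, K562, chr14:50329606-50329686, plus strand: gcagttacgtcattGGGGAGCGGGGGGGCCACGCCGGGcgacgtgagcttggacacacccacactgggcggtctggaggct

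The longest motif array of the set lay upstream of ENSG00000289222, and a related layout lay at LINC01003, a lncRNA gene next to KMT2C. Complete motifs on the strand shown are in capitals.
ENSG00000289222, K562, chr16:2955595-2955894, plus strand: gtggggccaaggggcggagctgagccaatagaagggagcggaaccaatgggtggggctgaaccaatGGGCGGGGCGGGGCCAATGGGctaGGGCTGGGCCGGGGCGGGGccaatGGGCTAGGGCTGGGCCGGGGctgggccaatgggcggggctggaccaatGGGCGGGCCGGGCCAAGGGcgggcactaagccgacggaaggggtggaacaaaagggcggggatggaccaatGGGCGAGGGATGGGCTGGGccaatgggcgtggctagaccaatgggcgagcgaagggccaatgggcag
LINC01003, K562, chr7:152160864-152161013, plus strand: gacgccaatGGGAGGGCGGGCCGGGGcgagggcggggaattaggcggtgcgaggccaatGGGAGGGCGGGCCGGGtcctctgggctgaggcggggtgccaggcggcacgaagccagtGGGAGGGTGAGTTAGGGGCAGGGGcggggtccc

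Many members held no complete motif. The peak of MALAT1 is shown as an example, with runs of at least 2 G in capitals.
MALAT1, HepG2, chr11:65264934-65265133, plus strand: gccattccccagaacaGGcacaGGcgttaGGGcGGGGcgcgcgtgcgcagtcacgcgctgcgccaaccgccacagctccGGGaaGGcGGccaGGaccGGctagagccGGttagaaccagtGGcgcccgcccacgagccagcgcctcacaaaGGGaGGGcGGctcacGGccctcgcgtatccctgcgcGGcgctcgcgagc

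Peaks upstream of immunoglobulin lambda variable segments were members in K562 alone, although lower-confidence HepG2 intervals met those of IGLV6-57 and IGLV1-51. Their capitals mark a CTCF core, the letters CA, AG and GGC with 2 bases of any kind in each gap, a part of the recognition sequence of the insulator-binding protein CTCF. These segments were chosen for printing after their values were seen.
IGLV6-57, K562, chr22:22549850-22549974, plus strand: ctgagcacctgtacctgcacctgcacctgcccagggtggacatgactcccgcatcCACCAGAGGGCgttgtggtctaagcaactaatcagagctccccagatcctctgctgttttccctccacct
IGLV1-51, K562, chr22:22676471-22676578, plus strand: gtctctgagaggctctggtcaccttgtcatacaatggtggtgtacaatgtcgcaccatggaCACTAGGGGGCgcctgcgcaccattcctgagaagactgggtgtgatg
IGLV1-47, K562, chr22:22711773-22711874, plus strand: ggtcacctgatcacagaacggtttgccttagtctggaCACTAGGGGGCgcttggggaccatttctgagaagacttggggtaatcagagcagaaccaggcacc
IGLV1-40, K562, chr22:22763743-22763846, plus strand: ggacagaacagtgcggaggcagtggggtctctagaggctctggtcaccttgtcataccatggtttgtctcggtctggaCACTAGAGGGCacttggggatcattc

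Long noncoding RNAs made up most of the set. Each member was assigned to the noncoding TSS nearest its centre among those whose 1 kb upstream it touched. By this TSS, 389 of 445 K562 members (87.4%) belonged to a lncRNA, 33 to a pseudogene and 12 to a small RNA gene. Another 6 belonged to an immune receptor segment and 5 to a gene of the type TEC, which awaits experimental evidence. In HepG2 the counts were 332 of 386 (86.0%) for lncRNAs, 28 for pseudogenes, 22 for small RNAs and 4 for TEC genes, with none at an immune receptor segment. Among lncRNA members, the gene had an Ensembl identifier only in 205 of 389 in K562 and 169 of 332 in HepG2, a LINC name in 73 and 69, and an antisense name ending in AS in 33 and 32. Members absent from both lists of the other line were lncRNA members in 88.5% of cases in K562 and 82.2% in HepG2, a difference that did not pass a two-sided Fisher's exact test (odds ratio 1.67, 95% interval 0.852 to 3.26, p = 0.176). That comparison depended on the peaks used. Without chromosomes 9, 13 and 22 the shares were 93.5% and 81.9% (odds ratio 3.21, 1.37 to 7.48, Fisher's exact p = 0.0066), and with the lower-confidence lists the direction turned (odds ratio 0.762, 0.573 to 1.01). This Fisher's exact p-value was not adjusted for the number of alternatives tried, so it is not taken as a result of its own.

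Counted over genes, 39703 noncoding genes had a TSS far enough from coding TSSs to hold a member, of which 1.34% had one in K562 (532 genes), 1.14% in HepG2 (452 genes) and 259 in both. By type, 2.73% of eligible lncRNA genes had a member in K562 and 2.30% in HepG2. For pseudogenes the shares were 0.487% and 0.386%, and for small RNA genes 0.318% and 0.445%. The genes with a member in both lines were 48.7% of those in K562 and 57.3% of those in HepG2. Of the 273 genes with a member in K562 alone, 122 met a lower-confidence HepG2 interval, and of the 193 in HepG2 alone, 67 met a lower-confidence K562 interval. With the lower-confidence lists the set grew to 920 K562 and 1146 HepG2 members, and the shares of genes to 2.53% and 2.89%.

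**Figure D1:**
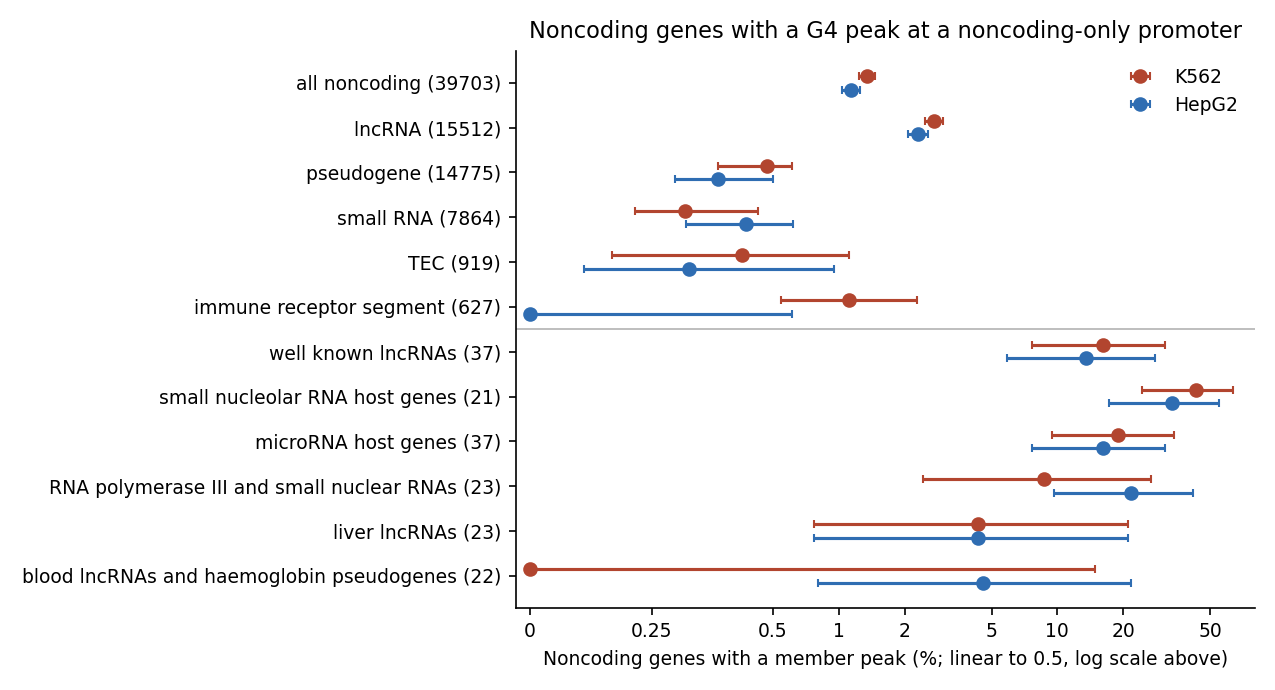
Share of eligible noncoding genes with a member peak (horizontal axis, percent, linear to 0.5 and logarithmic above) by gene type above the line and by gene list below it, for K562 in red and HepG2 in blue. Points are shares, bars are 95% Wilson intervals, and the number of eligible genes stands in brackets. All 39703 genes give 1.34% and 1.14%, and the small nucleolar RNA host genes lie farthest to the right.

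The overlap that chose the members fixes most centres upstream of a noncoding TSS (391 of 445 in K562 and 331 of 386 in HepG2). Within this window, 306 K562 and 228 HepG2 members were centred in the 300 bp next to the TSS. With positions upstream of the TSS written as negative, the median centre was at -86.5 bp in K562 (95% interval -100 to -75) and at -112 bp in HepG2 (-143.5 to -96.5). Measured without sign, the median distance to the TSS was 88 bp and 116 bp, against 62.5 bp and 74 bp from peaks in coding promoters to the nearest coding TSS. These measures are unlike, because the nearest coding TSS could lie on any side of the peak. The noncoding TSS had to have the peak in its 1 kb upstream. Small RNA members lay farther from the annotated start, with medians of -416 bp in K562 (n = 12) and -357 bp in HepG2 (n = 22). Of these, 8 in K562 and 10 in HepG2 were assigned to microRNA genes, and 5 in HepG2 to mitochondrial transfer RNA genes. Whether transcription begins at these annotated starts was not tested, so the distances are not read as distances to a true TSS. In K562 85 members (19.1%) and in HepG2 67 (17.4%) lay upstream of noncoding TSSs on both strands.

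**Figure D2:**
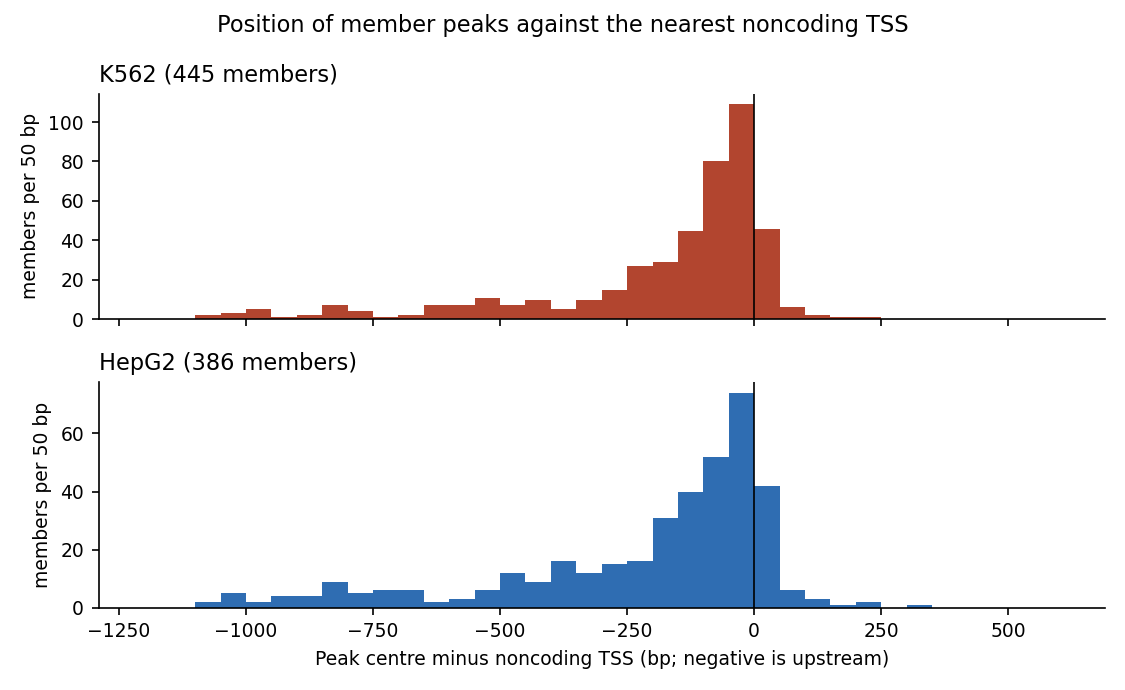
Number of member peaks per 50 bp (vertical axis) by the position of the peak centre against the assigned noncoding TSS (horizontal axis, bp, negative upstream), for 445 K562 and 386 HepG2 members. The assigned TSS is the nearest of those with the peak in their 1 kb upstream. Both lines peak just upstream of the TSS, with a tail that reaches 1 kb.

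The nearest coding TSS was a median of 18997 bp away in K562 and 18502 bp in HepG2. Of the members, 104 and 91 lay over 50 kb from any coding TSS. The farthest in both lines was the peak shared by LINC00662 and LINC02987 on chromosome 19, 1419190 bp from the TSS of UQCRFS1. It spanned 181 bp in K562 and 141 bp in HepG2 and was centred 2 bp downstream of the TSS. In K562 60 members and in HepG2 68 had their centre inside the body of a coding gene, and the noncoding transcript ran opposite to that gene in 37 and 45 of them. Whether a coding TSS lay within 5 kb or beyond 10 kb made no difference that passed the test, neither for sharing between lines nor for motifs (smallest Benjamini-Hochberg adjusted Fisher's exact p = 0.467 over 8 tests, which also compared lncRNA with pseudogene members). For HepG2 motifs the shares were 25.3% and 15.4% (odds ratio 1.86, 0.999 to 3.45).

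Peaks at noncoding-only promoters stood between those in coding promoters and those outside promoters in how often they recurred in the other line. Peaks in coding promoters touched the 1 kb upstream of a coding TSS and were not members. Peaks outside promoters touched no such window of any gene, and their centres lay over 1 kb from every coding TSS. The remaining 395 K562 and 348 HepG2 peaks were in none of these classes and count among all peaks only. In K562, 190 of 445 members (42.7%) overlapped a HepG2 high-confidence peak, against 51.1% of all K562 peaks, 59.1% of the 6953 peaks in coding promoters and 20.4% of the 1412 peaks outside promoters. Both differences passed Fisher's exact test (odds ratio 0.516, 0.425 to 0.626, adjusted p = 3.28e-11 for coding promoters, and 2.91, 2.31 to 3.65, adjusted p = 4.63e-19 outside promoters). In HepG2, 186 of 386 members (48.2%) were also high-confidence in K562, against 53.7% of all HepG2 peaks, 72.5% of 5685 in coding promoters (odds ratio 0.354, 0.287 to 0.435, adjusted Fisher's exact p = 1.93e-21) and 12.4% of 2386 outside promoters (6.54, 5.18 to 8.26, adjusted p = 1.90e-52). A further 107 K562 members and 65 HepG2 members met only lower-confidence intervals of the other line, and 148 (33.3%) and 135 (35.0%) met neither. Peaks are not independent replicates, and these p-values describe the lists. A wider peak is more likely to share 1 bp, and median widths followed the same order as sharing. For coding promoters, members and peaks outside promoters they were 206, 183 and 157 bp in K562. In HepG2 they were 186, 168.5 and 140 bp. Sharing was not compared within width classes. The 192 overlapping pairs had centres a median of 28.5 bp apart, and the K562 peak was the wider in 115 pairs and the HepG2 peak in 77.

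Complete G4 motifs followed the same order in both lines. They were present in 132 of 445 K562 members (29.7%) against 32.6% of all K562 peaks, 35.0% of those in coding promoters (odds ratio 0.781, 0.634 to 0.963, adjusted Fisher's exact p = 0.0208) and 21.5% outside promoters (1.54, 1.21 to 1.95, adjusted p = 0.000703). In HepG2 they were present in 68 of 381 members off the mitochondrial chromosome (17.8%), against 20.6% of all peaks, 25.3% in coding promoters (0.643, 0.491 to 0.841, adjusted Fisher's exact p = 0.00105) and 10.1% outside promoters (1.94, 1.45 to 2.60, adjusted p = 3.58e-05). Wider peaks can hold more motifs, and median widths in K562 were 183 bp for members, 206 bp in coding promoters and 157 bp outside promoters. Compared within 50 bp width classes, the K562 differences no longer passed (Mantel-Haenszel odds ratios 0.826, 0.659 to 1.04, and 1.24, 0.951 to 1.61). The HepG2 differences kept their direction and call within these width classes. With runs of at least 2 G the motif was present in 389 of 445 K562 members and 309 of 381 HepG2 members. Among members with motifs on 1 strand, the G-rich strand was that of the noncoding transcript in 67 of 122 (54.9%, 46.1% to 63.5%) in K562 and 34 of 66 (51.5%, 39.7% to 63.2%) in HepG2, both intervals including 50%.

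**Figure D3:**
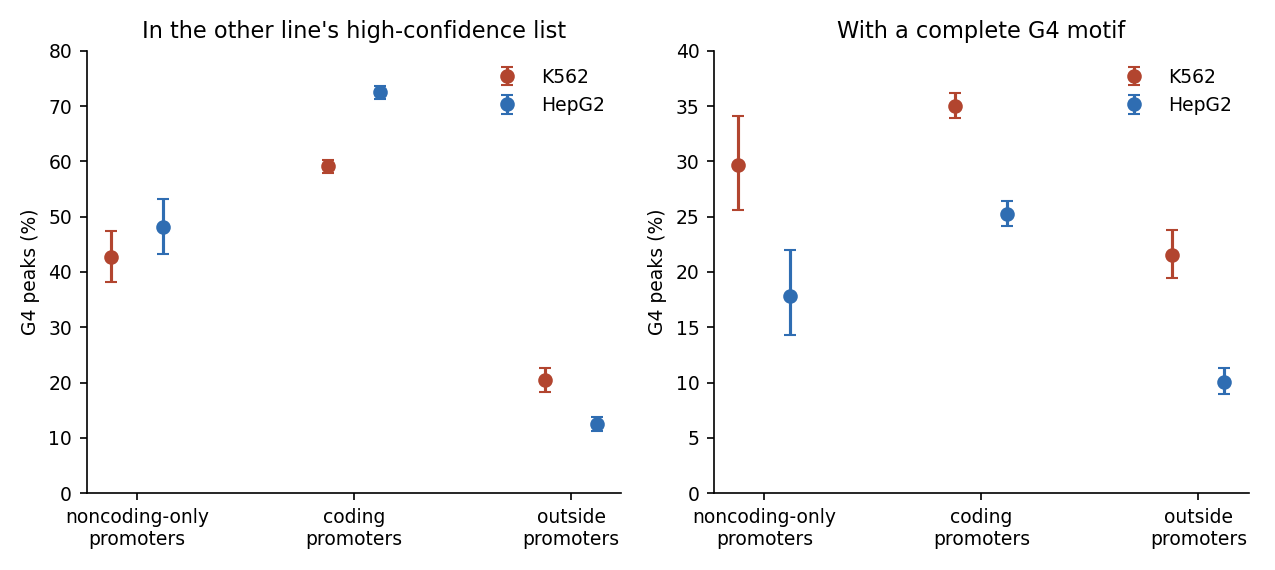
Share of G4 peaks (vertical axes, percent) that overlap the high-confidence list of the other line (left) and that hold a complete G4 motif (right), for peaks at noncoding-only promoters, in coding promoters and outside promoters, K562 in red and HepG2 in blue, with 95% Wilson intervals. In both panels and both lines the noncoding-only promoters lie between the other classes.

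In HepG2, members found in both lines were richer in GC and CpG than those found in HepG2 alone, by medians whose intervals did not overlap and with no test. HepG2 members absent from both K562 lists had a median GC content of 57.9% (95% interval 56.2% to 59.7%) and a median CpG ratio, observed over expected, of 0.344 (0.285 to 0.408), where those in both high-confidence lists had 68.9% and 0.830 (0.787 to 0.867). In K562 the GC medians were 69.4% for absent and 69.5% for shared members, and the CpG ratios, 0.714 (0.586 to 0.806) and 0.825 (0.784 to 0.858), had overlapping intervals. The letters CCAAT, a promoter element bound by NF-Y, were found within 200 bp around the centre, on either strand, in 80 of 190 shared K562 members (42.1%) and 17 of 148 absent from HepG2 (11.5%), against 31.0% of all K562 peaks. In HepG2 they were found in 80 of 186 shared members (43.0%) and 36 of 135 absent from K562 (26.7%), against 34.9% of all peaks. Peaks in coding promoters had them in 34.7% of cases in K562 and 41.6% in HepG2, and peaks outside promoters in 17.6% and 21.0%. Shared and absent peaks of those classes were not compared, so the contrast is not known to be particular to members. The odds ratios of shared over absent members were 5.60 (3.13 to 10.0) in K562 and 2.08 (1.29 to 3.35) in HepG2. The CTCF core was found in 8.42% of shared and 10.8% of absent members in K562, and in 6.99% and 4.44% in HepG2. Both motifs were picked after sequences of members in these same lists had been read, so no p-value is given for either.

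**Figure D4:**
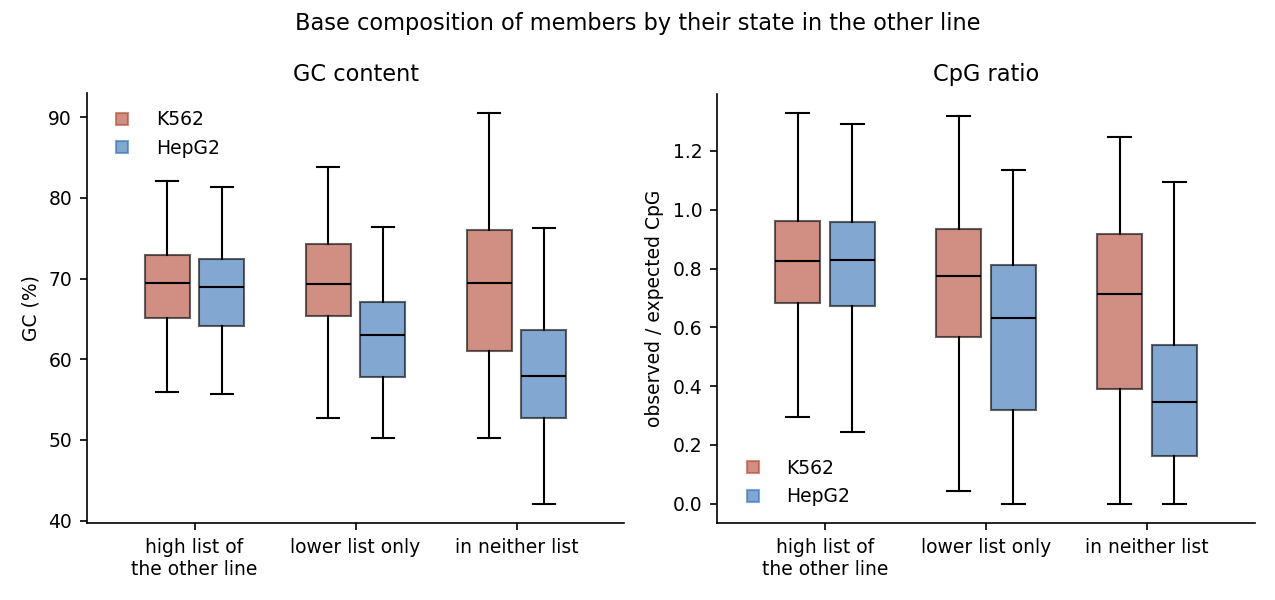
GC content (left, percent) and CpG ratio (right, observed over expected) of members that overlap the high-confidence list of the other line, its lower list only, or neither, for K562 in red and HepG2 in blue. Boxes span the quartiles with the median as a line, and whiskers reach the last value within 1.5 box heights. HepG2 members in neither K562 list are lowest, with medians of 57.9% and 0.344.

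The FAM86 family, pseudogene and lncRNA copies related to the coding lysine methyltransferase EEF2KMT, gave a pattern repeated over many loci. Upstream of FAM86 genes or the lncRNAs paired with them lay 18 K562 members, 17 of them in the HepG2 high-confidence list, and 12 HepG2 members, 11 of them in that of K562. These members are not all separate loci. Beside FAM86JP, K562 intervals of 431, 19 and 120 bp met the same HepG2 interval of 768 bp. Several K562 intervals also met a single HepG2 interval at FAM86C2P, FAM86FP and FAM86KP. The K562 peaks were 689 bp wide at FAM86GP, 672 bp at FAM86EP and 664 bp at LINC02018, among the 5 widest K562 members, and the HepG2 peaks there spanned 598, 638 and 588 bp. Searched with up to 4 mismatches in all 18010 peaks, the 26 bases of FAM86FP were found at 12 loci, none with more than 2 mismatches. Of these, 10 were members in K562 and 9 in HepG2, and the other 2 loci were in coding promoters. With base 1 as the opening G of the FAM86FP stretch, LINC02021 and FAM86KP had the same bases, FAM86EP, LINC02018 and ENSG00000287117 had C6G and FAM86GP had C6T. FAM86C2P had C6G with G9A, and all of these changes fell in loops and left the motif complete. ENSG00000248787, beside FAM86JP, had G1A with C6G, which broke the opening G run of the 26 bases. Its peak, 431 bp wide in K562 and 768 bp in HepG2, still held another complete motif, on the same strand at chr3:125634834-125634858, which overlaps those bases. In every one of the loci shown, the G-rich strand was opposite to the FAM86 transcript. The family was described after its values were seen.

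Such repeats were common in the set. Another copy of at least 95% identity over at least 80% of the peak existed elsewhere in the assembly for 43 of 423 K562 members of 50 bp or more (10.2%), against 0.633% of peaks in coding promoters and 2.19% outside promoters. In HepG2 it existed for 36 of 354 (10.2%), against 0.851% and 3.21%. The odds ratios of members over these classes were 17.8 and 5.05 in K562 and 13.2 and 3.41 in HepG2. No p-value is given, because the search was chosen after the data were seen and copies of 1 family count as separate peaks. Members with a copy recurred in the other line in 53.5% (38.9% to 67.5%) of cases in K562 and 55.6% (39.6% to 70.5%) in HepG2, against 41.5% and 47.4% for the rest, with overlapping intervals. The rest include members under 50 bp and, in HepG2, mitochondrial members, which were not searched. Reads of low mapping quality were removed upstream, and how the remaining reads were divided between copies was not tested. The widest member of all was such a repeat, a HepG2 interval of 2100 bp at chr21:9825454-9827553 over MIR3648 and MIR3687, with 5 complete motifs, where the K562 peak spanned 165 bp.

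ENSG00000289222, an uncharacterised lncRNA gene between coding neighbours on chromosome 16, had the most motifs of any member. Its K562 peak, chr16:2955363-2956104, was 742 bp wide and its HepG2 peak, chr16:2955369-2956100, 732 bp. Both held 9 complete motifs and 20 copies of CCAAT, with GGGCGGGG-type runs following many of the CCAAT boxes in the stretch printed above. At LINC01003 the peaks were 719 bp wide in K562 and 455 bp in HepG2, with 4 motifs and 5 CCAAT copies in each.

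Well-known lncRNAs and host genes are given by list, beside the 1.34% and 1.14% of all eligible noncoding genes, as counts without a test. Of 37 eligible well-known lncRNAs, 6 had a member in K562 and 5 in HepG2. MALAT1, a nuclear RNA linked to splicing, had a peak of 301 bp in K562 and 326 bp in HepG2, centred at -76 and -78 bp, with no complete motif in either. NEAT1, the scaffold of paraspeckles, had peaks of 294 and 183 bp centred at -504 and -467 bp, both over the motif shown. KCNQ1OT1, the imprinted antisense RNA of the KCNQ1 locus, had peaks of 126 and 168 bp, and DANCR of 330 and 260 bp. CRNDE had a peak of 459 bp in K562 that met neither HepG2 list, and the peak of MIAT, 203 bp, was likewise found in K562 alone. LINC00511 had 3 peaks in HepG2, of 144, 105 and 69 bp, and none in either K562 list at those places. Another 7 genes of this list had only a lower-confidence interval in K562, PVT1 and NORAD among them, and 6 in HepG2.

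Among 37 eligible microRNA host genes, 7 had a member in K562 and 6 in HepG2, 5 of them in both. MIR17HG, the host of the oncogenic miR-17-92 cluster, had 4 high-confidence intervals in K562, of 429, 18, 54 and 549 bp, the last with 3 motifs. None of them met a HepG2 high-confidence peak, and the widest pair met lower-confidence intervals. MIRLET7A1HG, a host of let-7 microRNAs, had 2 intervals in each line, 418 and 326 bp in K562 and 327 and 226 bp in HepG2, all shared. MIR210HG, host of the hypoxia-induced miR-210, had peaks of 381 and 334 bp. MIR1915HG had a member in HepG2 alone and MIR193BHG in K562 alone. MIR194-2HG, host of a microRNA cluster of liver and gut, had a K562 interval at -962 bp and a HepG2 interval at -88 bp that did not overlap.

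Small nucleolar RNA host genes had the highest share, 9 of 21 eligible genes in K562 and 7 of 21 in HepG2, 6 of them in both lines. In K562 their centres lay between -94 and 12 bp from the TSS, apart from an interval of 18 bp at SNHG26 centred at -344 bp, and in HepG2 between -117 and -8 bp. The peak of SNHG8 spanned 138 bp in K562 and 116 bp in HepG2. Of 23 RNA polymerase III and small nuclear RNA genes, 2 had a member in K562 and 5 in HepG2. RN7SL2, a gene for the RNA of the signal recognition particle, had peaks of 150 and 193 bp over the same motif in both lines, shared with ENSG00000282885, and RNU6ATAC, a minor spliceosome RNA, had peaks of 135 and 119 bp. The U6 genes RNU6-7 and RNU6-8 had members in HepG2 (225 and 189 bp) that met only the lower-confidence K562 list.

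Lineage lists gave few members, and their shares, each from 23 or fewer genes, had wide intervals. Among the 23 liver lncRNAs, CYP4A22-AS1 had a member of 185 bp in K562, at -13 bp, and only a lower-confidence interval in HepG2. Lower-confidence intervals without a member were also found at APOA1-AS and F11-AS1 in K562 and at FAM99B and LINC00574 in HepG2. Of 22 blood lncRNAs and haemoglobin pseudogenes, none had a member in K562 (95% Wilson upper bound 14.9%) and EGOT, an eosinophil-linked RNA, had one of 59 bp in HepG2. Lower-confidence intervals alone were found at LINC00173 in K562 and at MIR3142HG, LINC00570, LINC01426 and HCP5 in HepG2.

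Line-specific members were wide at a few genes. In K562 the 5 widest members in neither HepG2 list lay at ENSG00000290081 (519 bp), SERHL (518 bp), CRNDE (459 bp), PRODHLP (445 bp) and LINC03015 (441 bp). SERHL and PRODHLP are on chromosome 22 and held 4 motifs each. In HepG2 they lay at ENSG00000288028 (637 bp), ZNF775-AS1 (379 bp), LINC01273 near CEBPB (339 bp), ENSG00000257391 (336 bp) and LINC00273 (311 bp), the last pair with other copies in the assembly.

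Immune receptor segments had members in K562 only, as far as the high-confidence lists go. Of 627 eligible segments, 7 had a member in K562 (1.12%, 0.542% to 2.29%), near the 1.34% of all eligible noncoding genes, and 0 in HepG2 (95% Wilson upper bound 0.609%). In K562 5 members lay upstream of immunoglobulin lambda variable segments on chromosome 22 (IGLVV-66, IGLV6-57, IGLV1-51, IGLV1-47 and IGLV1-40) and 1 upstream of TRGV7, a T cell receptor gamma segment on chromosome 7, and no HepG2 member did. Their centres fell between -304 and -264 bp from the start of the segment, and they were 102 to 267 bp wide. Their CpG ratios, from 0.08 to 0.367, were below the K562 member median of 0.791. All 6 held 1 copy of the CTCF core, counted over the whole peak, and 1 of the 6 held a complete G4 motif. In another measure, the 200 bp around the centre, the core was found in 49 of 445 K562 members and 7.44% of all K562 peaks. The core was picked after sequences of members had been read. IGLV6-57, IGLV1-51 and TRGV7 met a lower-confidence HepG2 interval and the other 3 met none. Over all of chromosome 22 there were 27 K562 members (6.07% of members, against 3.15% of all K562 peaks) and 7 HepG2 members (1.81%, against 2.75%). Between 16 and 24 Mb lay 17 of the 27 and 1 of the 7. Of all chromosome 22 peaks 49.7% lay there in K562 and 16.5% in HepG2. The number of copies of chromosome 22 sequence in each line was not measured here.

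**Figure D5:**
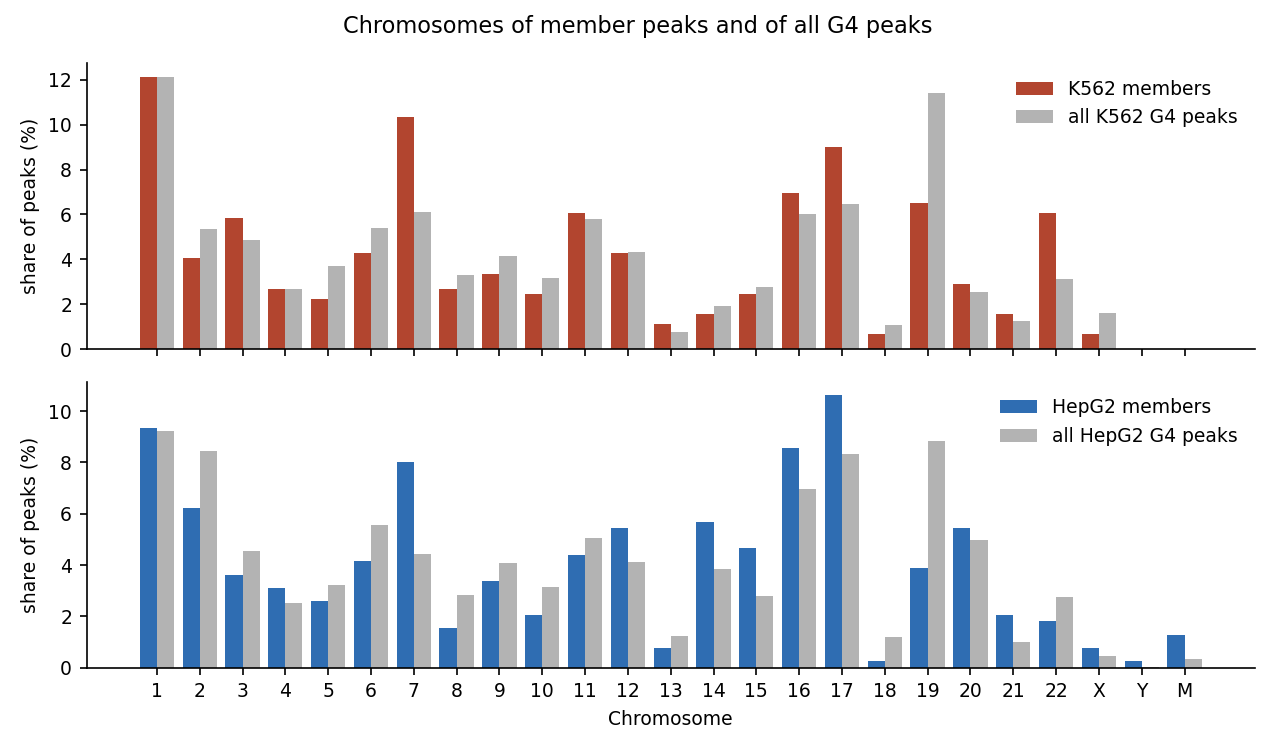
Share of member peaks (colour) and of all G4 peaks (grey) on each chromosome (vertical axes, percent), for K562 above and HepG2 below. Chromosome 7 holds 10.3% and 8.03% of members against 6.09% and 4.42% of all peaks, chromosome 22 stands out in K562, and chromosome 19 holds fewer members than its share of all peaks in both lines.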

How the data were processed

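Before deposit, the authors removed adapters, mapped reads on hg19, dropped duplicates and alignments of low quality, called peaks against input for each dataset and kept regions that recurred between datasets. The deposited files hold the resulting intervals as chromosome, start and end alone. All 4 lists were used. Intervals were classed against every transcript TSS of GENCODE release 44 lifted to GRCh37. The nearest noncoding TSS among those with the member in their 1 kb upstream named the gene. Sequence came from the GRCh37 assembly. The mitochondrial chromosome, of which hg19 may hold another version, was counted by position and left out of sequence measures, which affects 5 HepG2 members. Shares have 95% Wilson intervals, medians have order-statistic intervals, and comparisons used two-sided Fisher's exact tests (scipy 1.17.1) with Benjamini-Hochberg adjustment within each family and a threshold of 0.05. Copies were searched with megablast (BLAST+ 2.17.0). Scripts ran in Python 3.11.15 and were tested on simulated data. Intervals of 1 bp upward were kept, with 22 K562 and 27 HepG2 members under 50 bp.

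The members and lists were chosen with earlier results of these data known. Named genes were those of the 6 gene lists with a member, per line the 5 widest members, the 5 widest K562 members shared with HepG2, the 5 widest members per line absent from the other, the farthest from a coding TSS, the one with the most motifs, and genes of types with under 6 members, of which the report gives those it turns on. A gene that met this rule is not reported here. The FAM86 copies, the copy search, the CCAAT and CTCF core searches and the window on chromosome 22 were chosen after seeing the data.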

Additional observations from a re-analysis of the deposited data

Results flagged for a closer look

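The distance between members and the comparison peaks in sharing differed in value between the lists of the lines. The odds ratio of sharing for members over coding-promoter peaks was 0.516 in K562 and 0.354 in HepG2, a ratio of 1.46 (95% interval 1.10 to 1.94), and over peaks outside promoters it was 2.91 and 6.54, a ratio of 0.445 (0.321 to 0.616). These intervals cover counting over peaks and are no test of the cell lines, since each line has 1 merged list and a shared locus enters both odds ratios. Outside promoters the shared peaks numbered 288 of 1412 in K562 and 297 of 2386 in HepG2, so the number listed differed more than the number shared. The corresponding ratios for complete motifs were 1.22 (0.865 to 1.71) and 0.792 (0.542 to 1.158).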

How the results depend on the processing

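Of 271 values under 24 alternatives, 243 kept their direction and call or, with no test, stayed within 1.5 times a count or inside the interval of a share. The numbers of members, counted this way, still rose from 445 to 614 and from 386 to 496 with 1 TSS per gene. No paired analysis was possible because the deposited lists merge the replicates of each line, and for the same reason no replicate could be left out. The K562 motif odds ratio against coding promoters lost its call with 1 TSS per gene (0.95), basic transcripts (0.817), coding TSSs from coding transcripts alone (0.837), a 5 kb limit (0.795) and width classes (0.826), and that against peaks outside promoters with 1 TSS per gene (1.165), a 200 bp window (1.23) and width classes (1.24). The lncRNA comparison between line-specific members turned to 0.762 with the lower-confidence lists and passed, without adjustment for the alternatives tried, without chromosomes 9, 13 and 22 (3.21). The causes were not tested. Lower-confidence lists gave 920 and 1146 members, lncRNA shares of 79.9% and 81.7%, and gene shares of 2.53% and 2.89%. The lncRNA share was 83.9% in K562 with 1 TSS per gene and 90.7% in HepG2 without automatically annotated (level 3) genes. The gene shares, 1.34% and 1.14%, became 1.62% and 1.31% with 1 TSS per gene, 1.61% and 1.33% without level 3 genes, 1.22% and 1.02% with 500 bp upstream, 1.20% and 0.927% with intervals of at least 100 bp, and 1.21% and 0.985% without copied peaks, an alternative added after seeing the data. Depth is unknown, so absence from a list is not absence of a G4.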

Other observations

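Rarer gene types added single loci. In HepG2, 5 intervals lay on the mitochondrial chromosome, upstream of the transfer RNA genes MT-TF, MT-TV and MT-TP, all of which met only the lower-confidence K562 list, and K562 had no high-confidence interval of this kind. HepG2 members also lay upstream of a Y RNA gene on chromosomes 14 and 17, of RNU7-160P and of the signal recognition particle pseudogene RN7SL467P, the last 177 bp wide beside the angiotensinogen gene AGT. In K562 such members lay at a Y RNA gene on chromosome 1 (129 bp), at RNVU1-18, a variant U1 gene (152 bp, 1 motif), and at RNU1-59P (258 bp, 1 motif).

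Among pseudogenes, SMG1P2, a copy of the nonsense-mediated decay kinase SMG1, had peaks of 348 bp in K562 and 261 bp in HepG2. RNA5-8SP2, a ribosomal RNA pseudogene, had peaks of 195 and 173 bp. AHSA2P (314 bp, 3 motifs), VAMP9P (361 bp) and C19orf48P (190 bp) were HepG2 members assigned to these genes that overlapped K562 high-confidence peaks. Of genes with the type TEC, ENSG00000279407 had peaks of 347 and 332 bp and ENSG00000279744 of 211 and 221 bp.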
